A study of Mus musculus with 4 samples.

Results

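The 8 ephrin genes of the mouse, Efna1 to Efna5 and Efnb1 to Efnb3, encode the membrane-bound ligands of the Eph receptor tyrosine kinases. They were taken by gene symbol from a deposited table of 55426 rows, in which each of the 8 had 1 row. All 8 had a mean of at least 1 FPKM (fragments per length of transcript, relative to all mapped fragments) over the libraries and were among the 13931 genes tested. RNA came from retinal organoids at day 6, which are aggregates of mouse stem cells cultured towards retina. By the labels every library came from one line, Mettl3 KO with the reporter Rx:GFP and a Dox-inducible HA-METTL3, differentiated in medium with AGN, a compound that they do not spell out. METTL3 is the catalytic subunit of the enzyme that writes N6-methyladenosine (m6A) on RNA, and the organoids differed in whether they received doxycycline (Dox), the drug that is meant to switch on the tagged copy. The 2 untreated libraries are compared here with the 2 libraries given Dox at 2 µg/ml for 6 days. Wild-type organoids are not analysed here, the labels do not say whether the line is 1 clone, and the titles carry the letters EV, which the labels do not explain.

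Ephrin-A ligands are held in the membrane by a glycolipid anchor and mostly bind EphA receptors. Ephrin-B ligands span the membrane, mostly bind EphB receptors and can signal into the cell that carries them. Contact between ligand and receptor usually makes cells or growth cones repel or sort from each other. In the retina, graded ephrins and Ephs lay out the map of retinal axons in the brain, with A-class members graded along the nasal-temporal axis and B-class members along the dorsal-ventral axis, and ephrin-B1 also takes part in the movement of progenitors into the eye field.

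Judged from the smallest steps in their low values, the FPKM of the 4 libraries were scaled to 31700000 to 34900000 fragments. Whether each library held that many is not known. The FPKM values summed to 793308 to 866239 per library. Pearson's r of log2(FPKM + 1) across genes, which are not independent replicates, was 0.990 within the untreated pair and 0.987 within the Dox pair. Mettl3 itself was listed at 40.33 and 37.98 FPKM without Dox and at 45.2 and 46.37 FPKM with Dox (adjusted p = 0.122 in limma), and gene-level values do not separate the disrupted gene from the inducible copy.

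In these organoids 5 of the 8 ephrin genes differed between Dox and no Dox, and they went in both directions within each class. Efnb2, Efnb3 and Efna5 rose with Dox, by 1.58-fold to 2.18-fold in mean FPKM. Efnb1 fell to 0.483 and Efna2 to 0.706 of the untreated mean. Efna1, Efna3 and Efna4 did not pass the test. With no filter on low values, of these 5 only Efnb3 passed (adjusted p = 0.0495 in limma). A gene is said to rise or fall where its adjusted p was below 0.05 in limma on log2(FPKM + 1), with Benjamini-Hochberg adjustment over all 13931 genes. By that rule 9.31% of all tested genes changed, 4.44% upwards and 4.87% downwards, against 3 ephrin genes upwards and 2 downwards. Treated and untreated libraries were fully separated for 7 of the 8 ephrin genes, and for 53.4% of all tested genes. In bulk RNA, fewer cells of a type and less RNA per cell cannot be told apart.

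Of the 5 changed genes, 4 have a RefSeq start site in the promoter table used (GRCm38.p6), and the 250 bases before it are shown because a pair of them rose and the other two fell. Capitals mark the letters searched for in either strand: the GC box GGGCGG, the CCAAT box CCAAT, the TATA box TATAAA, the T-box half-site GTGTGA, the TCF/LEF core CTTTGA and the homeodomain core TAATTA. A match on the other strand is printed as its reverse complement. The first pair rose with Dox (Efnb2, chr8:8661243-8661492, minus strand; Efna5, chr17:62881318-62881567, minus strand) and the second fell (Efnb1, chrX:99135811-99136060, plus strand; Efna2, chr10:80179232-80179481, plus strand).
Efnb2: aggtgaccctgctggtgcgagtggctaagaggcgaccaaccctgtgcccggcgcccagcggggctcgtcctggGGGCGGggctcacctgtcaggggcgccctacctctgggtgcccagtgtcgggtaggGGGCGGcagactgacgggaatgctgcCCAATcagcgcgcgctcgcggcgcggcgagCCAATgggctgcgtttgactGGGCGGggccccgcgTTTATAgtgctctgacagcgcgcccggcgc
Efna5: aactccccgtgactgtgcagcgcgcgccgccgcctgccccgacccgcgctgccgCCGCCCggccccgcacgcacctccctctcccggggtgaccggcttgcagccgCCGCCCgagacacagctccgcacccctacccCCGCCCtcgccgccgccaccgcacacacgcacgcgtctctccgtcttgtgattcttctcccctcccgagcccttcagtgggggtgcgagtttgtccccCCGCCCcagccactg
Efnb1: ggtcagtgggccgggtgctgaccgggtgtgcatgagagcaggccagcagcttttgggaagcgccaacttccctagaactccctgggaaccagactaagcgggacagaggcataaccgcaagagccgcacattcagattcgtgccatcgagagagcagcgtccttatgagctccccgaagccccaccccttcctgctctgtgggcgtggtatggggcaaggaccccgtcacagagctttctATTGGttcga
Efna2: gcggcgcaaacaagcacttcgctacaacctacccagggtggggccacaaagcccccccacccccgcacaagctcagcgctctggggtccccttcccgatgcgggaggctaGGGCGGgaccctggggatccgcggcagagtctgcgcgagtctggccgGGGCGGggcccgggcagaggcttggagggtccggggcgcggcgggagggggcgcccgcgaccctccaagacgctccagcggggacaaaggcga

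The window of Efnb2 held 3 GC boxes, 2 CCAAT boxes and 1 TATA box, and that of Efna5 held 4 GC boxes. The window of Efnb1 held 1 CCAAT box and no GC box, and that of Efna2 held 2 GC boxes. In none of these 4 windows were the T-box, TCF/LEF or homeodomain letters found, which says only that they are not in these bases. The E-box CANNTG, searched but not marked, occurred 1 time in the window of Efnb2 and in none of the other three, against 66.2% of all windows. Of all 32851 promoter windows of the same length, 32.7% held a GC box, 33.8% a CCAAT box, 12.4% a TATA box, 12.3% the T-box half-site, 13.8% the TCF/LEF core and 4.84% the homeodomain core. All 4 windows were richer in G and C than the median window of 52.4%, at 72.0% for Efnb2, 74.8% for Efna5, 60.0% for Efnb1 and 73.6% for Efna2. The RefSeq start of Efnb1 lies a little upstream of its GENCODE gene model. Efnb3 has no entry in that table.

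Of the ephrin-B genes, Efnb1 (ENSMUSG00000031217, chrX:99136130-99148991 in GENCODE M21 on GRCm38, plus strand) was the most abundant ephrin without Dox and fell. It was listed at 48.25 and 46.33 FPKM in untreated replicates 1 and 2 and at 20.59 and 25.13 FPKM in Dox replicates 1 and 2. Both Dox libraries lay far below both untreated ones. The group means were 47.3 ± 1.36 and 22.9 ± 3.21 FPKM (SD, n = 2 each), which on the log2(FPKM + 1) scale is a difference of -1.02 with an SE of 0.106 (limma, adjusted p = 0.00379). By fold change it ranked 302 from the lowest of the 13931 tested genes.

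Efnb2 (ENSMUSG00000001300, chr8:8617434-8661242, minus strand), known as the ligand of EphB4 in arteries and as a dorsal ligand in the retina, rose. It was listed at 31.14 and 29.59 FPKM without Dox and at 47.63 and 62.57 FPKM with Dox. The Dox replicates were further apart from each other than the untreated ones, and both lay above them. The means were 30.4 ± 1.10 and 55.1 ± 10.6 FPKM (SD, n = 2 each), which on the log2(FPKM + 1) scale is a difference of 0.83 with an SE of 0.134 (limma, adjusted p = 0.0189). The call was lost without untreated replicate 1 (log2 fold change 0.86, adjusted p = 0.0862 in limma) and without untreated replicate 2 (0.79, adjusted p = 0.109), fits that rest on 3 libraries.

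Efnb3 (ENSMUSG00000003934, chr11:69554092-69560205, minus strand), a ligand best known as a midline barrier to axons of the forebrain and spinal cord, had the highest fold change of the family. Its FPKM was 22.2 and 19.88 without Dox, against 41.76 and 50.04 with Dox. The groups were clearly apart. The means were 21.0 ± 1.64 and 45.9 ± 5.85 FPKM (SD, n = 2 each), which on the log2(FPKM + 1) scale is a difference of 1.09 with an SE of 0.110 (limma, adjusted p = 0.00349). By fold change it ranked 234 from the highest of all tested genes.

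**Figure D1:**
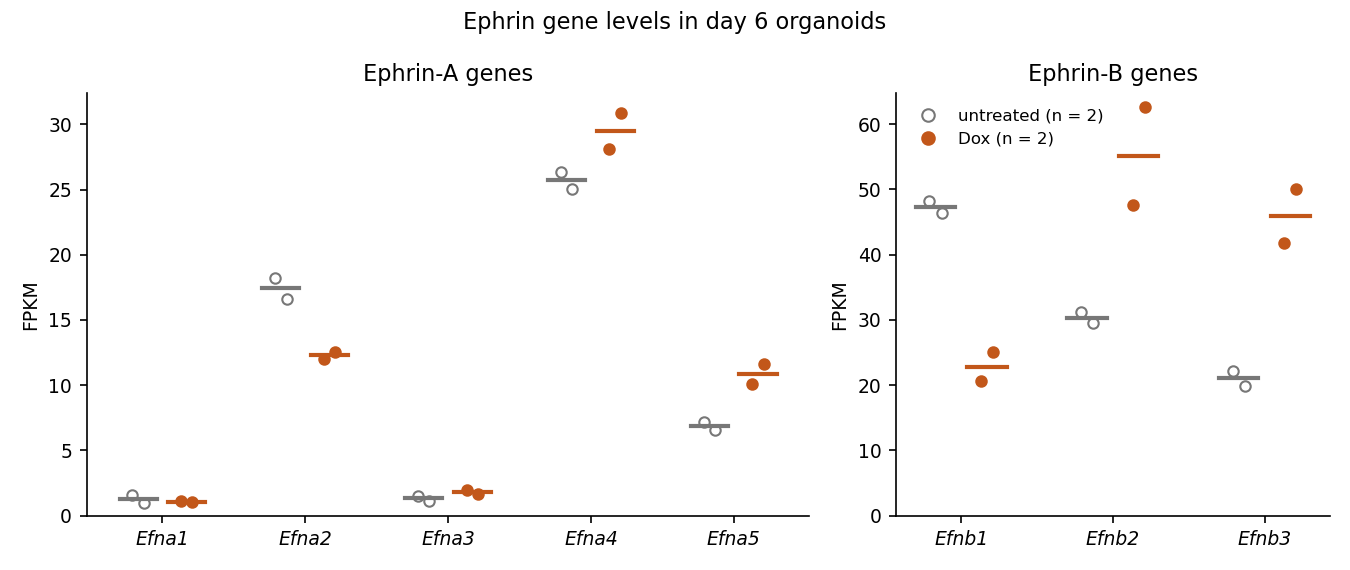
FPKM of each ephrin gene in each library, with ephrin-A genes on the left and ephrin-B genes on the right on separate linear axes. Open grey circles are the 2 untreated and filled orange circles the 2 Dox libraries, and each bar is a group mean. Efnb1 sits at 46.33 to 48.25 FPKM without Dox and 20.59 to 25.13 with it, while Efnb2 and Efnb3 sit higher with Dox.

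Because Efnb1 moved against Efnb2 and Efnb3, the make-up of the ephrin-B class changed more than its total. FPKM is scaled to length, so the levels of different genes can be added within a library. Efnb1 made up 47.5% and 48.4% of the ephrin-B sum in the untreated libraries and 18.7% and 18.2% in the Dox libraries. Its ratio to Efnb2 was 1.55 and 1.57 without Dox and 0.432 and 0.402 with Dox, so the more abundant ligand of the pair switched from Efnb1 to Efnb2 in both Dox libraries. Efnb2 went from 30.7% and 30.9% of the class to 43.3% and 45.4%, and Efnb3 from 21.9% and 20.8% to 38.0% and 36.3%. The ephrin-B sum itself was 101.6 and 95.8 FPKM without Dox and 109.98 and 137.74 FPKM with Dox. These sums and shares are descriptions and carry no test.

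Of the ephrin-A genes, Efna2 (ENSMUSG00000003070, chr10:80179482-80190010, plus strand) and Efna5 (ENSMUSG00000048915, chr17:62604184-62881317, minus strand) are the pair best known for guiding retinal axons in their brain targets. They moved in opposite directions. Efna2 was listed at 18.2 and 16.64 FPKM without Dox and at 12.04 and 12.57 FPKM with Dox, so that both Dox libraries lay below both untreated ones. Its means were 17.4 ± 1.10 and 12.3 ± 0.375 FPKM (SD, n = 2 each), which on the log2(FPKM + 1) scale is a difference of -0.47 with an SE of 0.0853 (limma, adjusted p = 0.0282). This call was lost whichever library was left out, with adjusted p between 0.105 and 0.193 in limma on 3 libraries, and log2 fold changes of -0.50 without Dox replicate 2, -0.44 without Dox replicate 1, -0.41 without untreated replicate 1 and -0.53 without untreated replicate 2. It was also lost after rescaling to a common sum (-0.45, adjusted p = 0.104).

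Efna5 was listed at 7.17 and 6.59 FPKM without Dox and at 10.07 and 11.64 FPKM with Dox. Both Dox libraries were higher. The means were 6.88 ± 0.410 and 10.9 ± 1.11 FPKM (SD, n = 2 each), which on the log2(FPKM + 1) scale is a difference of 0.59 with an SE of 0.108 (limma, adjusted p = 0.0290). Leaving out any 1 library ended this call too, with log2 fold changes of 0.68 without Dox replicate 1, 0.49 without Dox replicate 2, 0.64 without untreated replicate 1 and 0.53 without untreated replicate 2, and adjusted p between 0.0739 and 0.172 in limma. After rescaling to a common sum its adjusted p was 0.0604 at a log2 fold change of 0.62. The ratio of Efna5 to Efna2 was 0.394 and 0.396 without Dox and 0.836 and 0.926 with Dox, a change seen in both libraries.

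Efna4 (ENSMUSG00000028040, chr3:89333390-89338028, minus strand) was the most abundant ephrin-A gene in all 4 libraries. It stood at 26.33 and 25.06 FPKM without Dox and at 28.11 and 30.87 FPKM with Dox. The groups did not overlap, but the difference did not pass the test (log2 fold change 0.19, 95% interval -0.0081 to 0.39, adjusted p = 0.224 in limma). Efna4 provided 48.9% ± 1.21 of the ephrin-A sum without Dox and 53.1% ± 0.457 with Dox (SD, n = 2 each).

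Efna1 (ENSMUSG00000027954, chr3:89271733-89281142, minus strand), a ligand of EphA2 first described in endothelial cells, and Efna3 (ENSMUSG00000028039, chr3:89313899-89322965, minus strand) were near the filter of 1 FPKM. Efna1 was listed at 1.62 and 1 FPKM without Dox and at 1.09 and 1.03 FPKM with Dox, with overlapping groups (log2 fold change -0.15, 95% interval -0.59 to 0.28, adjusted p = 0.655 in limma). Efna3 was listed at 1.53 and 1.12 FPKM without Dox and at 1.93 and 1.65 FPKM with Dox (log2 fold change 0.27, 95% interval -0.11 to 0.64, adjusted p = 0.360). The interval of Efna1 still holds a fall of the size seen for Efna2, and that of Efna3 a rise of the size seen for Efna5. At the depth recovered from the table, about 47 to 73 fragments per library stood behind Efna1 and about 83 to 130 behind Efna3, against at least 722 for the other 6 genes, if each gene is counted on its longest coding transcript.

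Efna1, Efna3 and Efna4 lie side by side on chromosome 3, all on the minus strand, within 66.3 kb that holds no other protein-coding gene. Their levels were far apart, with Efna4 above 25 FPKM in every library and its neighbours below 2 FPKM. None of the 3 changed past the threshold. Exons of Efna3 and Efna4 overlap antisense genes over 14.1% and 10.5% of their exon bases, and the strand setting of the counting is not given in the sources used here. Those antisense genes, Gm15998 and 4731419I09Rik, were listed at no more than 0.11 and 0.51 FPKM.

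**Figure D2:**
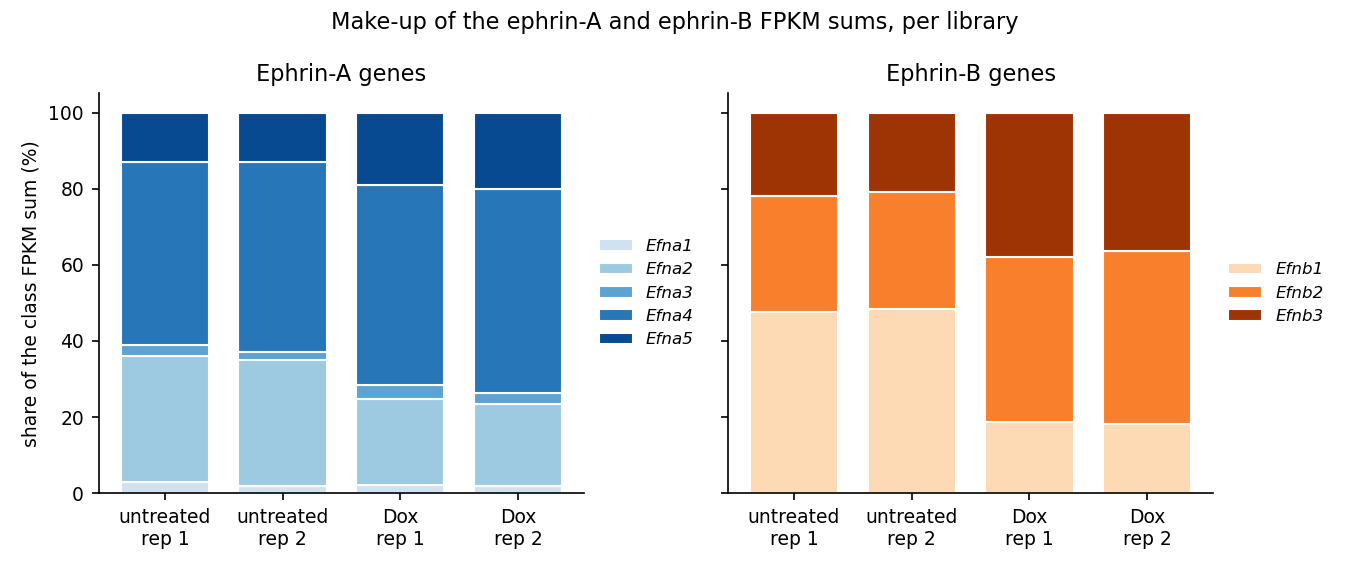
Share of each gene in the summed FPKM of its class (vertical axis, percent) in each of the 4 libraries, ephrin-A left and ephrin-B right. The replicates of a group look alike, Efnb1 shrinks from 47.5% and 48.4% to 18.7% and 18.2%, and Efna2 gives way to Efna5 and Efna4.

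Over the whole ephrin-A class the sum was 54.85 and 50.41 FPKM without Dox and 53.24 and 57.76 FPKM with Dox, so the groups overlapped. Efna2 went from 33.1% ± 0.122 to 22.2% ± 0.603 of that sum (SD, n = 2 each), and Efna5 from 13.1% in both untreated libraries to 18.9% and 20.2%. Ordered by FPKM, the family ran Efnb1, Efnb2, Efna4, Efnb3, Efna2, Efna5 in both untreated libraries and Efnb2, Efnb3, Efna4, Efnb1, Efna2, Efna5 in both Dox libraries. Efna3 and Efna1 came last and were not separated by their replicates without Dox. With Dox, Efnb2 and Efnb3 were not separated either, since the higher library of Efnb3 (50.04 FPKM) exceeded the lower one of Efnb2 (47.63 FPKM).

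The receptors these ligands meet were measured in the same fit. Of 14 Eph receptor genes, 11 were tested, and 4 fell, 0 rose and 7 did not pass the test. That is 36.4% called, against 9.31% of all tested genes. The median log2 fold change of the 11 receptors was 0.05, against -0.0042 over all tested genes. Epha3, a receptor of ephrin-A ligands, was listed at 11.97 and 12.6 FPKM without Dox and at 1.49 and 1.18 FPKM with Dox, a difference of -2.51 on the log2(FPKM + 1) scale with an SE of 0.117 (limma, adjusted p = 2.52e-04). Epha7, a receptor of ephrin-A5 in the developing forebrain, was listed at 23.09 and 23.98 FPKM without Dox and at 7.32 and 7.07 FPKM with Dox (-1.58, adjusted p = 3.27e-04). Epha10, a receptor without kinase activity, had 4.73 and 4.24 FPKM untreated and fell to 1.42 and 1.52 FPKM (-1.15, adjusted p = 0.00374). Ephb3, a receptor of ephrin-B ligands, had 6.11 and 5.12 FPKM untreated and fell to 2.07 and 2.17 FPKM (-1.08, adjusted p = 0.00554), a call that was lost without Dox replicate 1 (-1.06, adjusted p = 0.0565), without Dox replicate 2 (-1.10, adjusted p = 0.0546) and without a filter (adjusted p = 0.0571). The 4 receptors that fell thus include 3 of the A class and 1 of the B class, and in each the groups were far apart.

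The EphB receptors most abundant here did not change past the threshold. Ephb4, the receptor that pairs with ephrin-B2, was at 21.14 and 17.53 FPKM without Dox and at 24.23 and 30.03 FPKM with Dox (log2 fold change 0.47, adjusted p = 0.110 in limma). Ephb2 was at 22.06 and 20.15 FPKM against 20.19 and 24.62 FPKM, with overlapping groups (adjusted p = 0.737). Epha4, which can bind both classes of ephrin, was at 14.26 and 14 FPKM against 13.59 and 15.91 FPKM (adjusted p = 0.793). Epha1, Epha6 and Epha8 were below the filter, at no more than 0.59 FPKM in any library. The remaining Epha2, Epha5, Ephb1 and Ephb6 stood between 0.9 and 8.5 FPKM, with Ephb1 lower in both Dox libraries (3.02 and 2.84 against 1.77 and 2.22 FPKM, adjusted p = 0.147) and the other three higher in both.

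**Figure D3:**
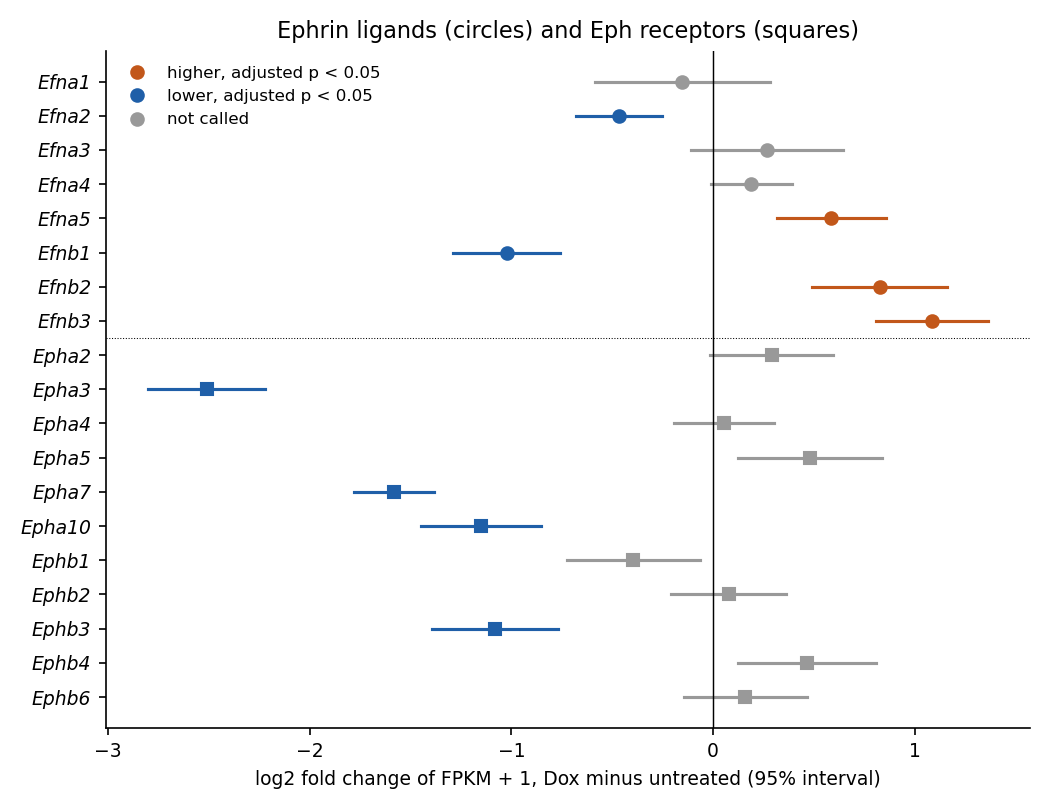
Log2 fold change of FPKM + 1, Dox minus untreated (horizontal axis), with its unadjusted 95% interval from limma, for the 8 ephrins (circles) and the 11 tested Eph receptors (squares). Orange marks genes that rose, blue those that fell and grey those that did not pass. Called ephrins lie on both sides of 0 and called receptors only below it.

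**Figure D4:**
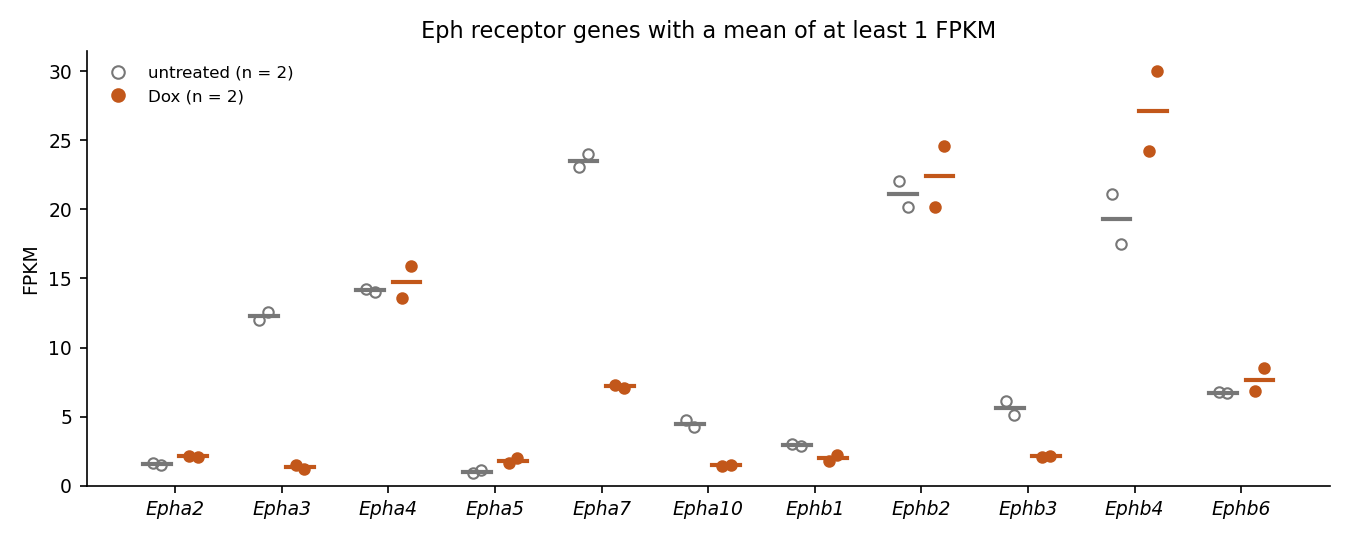
FPKM of the 11 tested Eph receptor genes in each library (vertical axis, linear), open grey circles untreated and filled orange circles Dox, with bars at the group means. Epha3 and Epha7 drop to 1.18 to 1.49 and 7.07 to 7.32 FPKM with Dox, and Ephb2 and Epha4 overlap between the groups.

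Genes that act next to Eph receptors and ephrins (among them the sheddase Adam10, adaptors, Src-family and Abl kinases, chimaerins and phosphatases) mostly did not pass the test. Of 32 such genes 28 were tested, 3 rose, 2 fell and 23 did not pass. That is 17.9% called, against 9.31% of all tested genes, with a median log2 fold change of 0.0072. Pdzrn3, a ubiquitin ligase with PDZ domains whose place next to ephrins is less sure than that of the others, rose (log2 fold change 1.36, adjusted p = 0.00162 in limma). Ngef, the gene of ephexin (0.88, adjusted p = 0.0456), and Rgs3, whose PDZ form binds the tail of ephrin-B (0.50, adjusted p = 0.0419, named after its value was seen), also rose, but close to the threshold. Of 14 alternatives Rgs3 lost its call in 8, among them each fit that leaves out a library (adjusted p between 0.104 and 0.224 in limma). Ngef lost it in 5 of the 13 that test it, among them the fits without Dox replicate 1 (adjusted p = 0.125), without Dox replicate 2 (0.214) and without untreated replicate 1 (0.149). Ngfr, a partner of ephrin-A in axons, fell from 3.38 and 3.23 to 0.51 and 0.32 FPKM (log2 fold change -1.61, adjusted p = 0.00196 in limma). Chn2, a chimaerin, fell from 9.23 and 8.9 to 2.26 and 2.5 FPKM (log2 fold change -1.57, adjusted p = 7.90e-04). Adam10, which cuts ephrins from the membrane, stood at 24.8 ± 0.608 and 25.5 ± 1.85 FPKM (SD, n = 2 each, adjusted p = 0.828).

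The organoids also differed in cell-type markers. Of 7 retinal progenitor markers 6 rose and 0 fell, and their summed level went from 248.4 to 272.9 FPKM without Dox to 929.5 to 1082 FPKM with Dox. Rax, which marks the eye field, had 0.82 to 1.12 FPKM without Dox against 201.1 and 228.0 FPKM with Dox, so the untreated organoids hardly carry this marker of the tissue they are named for. All 6 tested of 8 neuron markers fell, and the sum over all 8 went from 151.3 to 153.8 FPKM down to 83.65 to 87.6 FPKM. Most of that neuron sum was Tubb3, at 118.53 and 116.78 FPKM without Dox and 75.76 and 79.83 FPKM with Dox. Of 7 tested forebrain dorsal midline markers 6 fell, and the sum over all 8 went from 347.9 to 352.3 FPKM down to 28 to 31.06 FPKM. The part of these shifts in the ephrin values was not tested. Transcription factors and signals that pattern the axes of the optic vesicle moved as well: of 12 tested of 16, 11 rose and 1 fell.

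Markers of cells outside the neural lineage that use ephrins were looked at for the same reason. The 8 endothelial markers summed to 1.03 to 1.1 FPKM without Dox and 15.38 to 19.7 FPKM with Dox, of which Kdr, a gene that retinal progenitors also express, made up 13.91 and 17.63 FPKM in the Dox libraries. The other 7 had a mean below 1 FPKM and were not tested. Among them Cdh5 was listed at 0.05 and 0.01 FPKM without Dox and at 0.43 and 0.61 FPKM with Dox, and Tek at 0.02 and 0.08 against 0.2 and 0.28 FPKM, so both were higher in both Dox libraries, as was Erg (0 and 0.05 against 0.17 and 0.08 FPKM). Pecam1 overlapped between the groups (0.63 and 0.53 against 0.62 and 0.89 FPKM), as did Tie1 (at no more than 0.08 FPKM), Emcn (at no more than 0.03 FPKM) and Cldn5 (at no more than 0.16 FPKM). Whether endothelial cells take part in the Efnb2 values was not tested. Of 4 tested surface ectoderm markers 0 passed the test, the sum over all 8 was 47.82 to 52.89 FPKM without Dox and 51.54 to 58.02 FPKM with Dox, and Krt5, Krt14 and Trp63 did not exceed 0.02 FPKM. The 8 mesenchyme and neural crest markers, all tested, summed to 29.2 to 30.53 FPKM without Dox and 23.5 to 26.64 FPKM with Dox, but 2 fell and 2 rose within that sum. Of the neural crest factors, Sox10 (12.79 and 13.35 FPKM untreated, 0.82 and 0.43 FPKM with Dox, log2 fold change -3.12, adjusted p = 2.69e-04 in limma) and Foxd3 (5 and 4.66 against 0.45 and 0.07 FPKM, -2.23, adjusted p = 0.00162) fell. Snai2 (1.5 and 1.53 against 2.62 and 2.27 FPKM, 0.45, adjusted p = 0.0966) and Twist1 (2.57 and 2.34 against 3.95 and 3.46 FPKM, 0.44, adjusted p = 0.0914) were higher in both Dox libraries but did not pass. Prrx1 was lower in both Dox libraries without passing (-0.55, adjusted p = 0.111), and Col1a1 overlapped. The collagen gene Col1a2 (2.46 and 1.93 against 12.21 and 12.02 FPKM, 2.04, adjusted p = 5.54e-04) and the receptor gene Pdgfra (1 and 1.2 against 2.82 and 2.74 FPKM, 0.85, adjusted p = 0.0141) rose. These neural crest and mesenchyme genes thus moved in both directions. With 2 libraries per group, every gene that differs between the groups varies with the changed ephrin genes. The part of these marker genes in the ephrin values was not tested. Of the 6 pluripotency markers 1 fell and 0 rose, with sums of 67.41 to 70.35 and 49.95 to 72.91 FPKM.

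Since the line is defined by the m6A writer, the ephrin transcripts were searched for GGACT, the most common letters around an m6A site. The longest coding transcript of Efnb1 held 9 matches in 3258 bases (2.76 per kb), the most per kb of the family, and that of Efna2 held 5 in 2131 bases (2.35 per kb). Efnb2 had 8 matches (1.67 per kb), Efna5 6 (1.49 per kb) and Efnb3 5 (1.57 per kb). The genes that did not pass the test held 3 each, at 1.84 per kb for Efna1, 1.27 for Efna3 and 1.88 for Efna4. All 8 were above the median of 1.05 per kb over the 11629 tested genes with a coding transcript in GENCODE M21. At least 1 match was found in 92.3% of those tested genes. The 2 ephrins that fell had the highest densities of the 8, followed by Efna4 and Efna1, which did not pass the test. This is a description of letters on the sense strand of 1 transcript per gene, and methylation was not measured in these libraries. Whether these letters bear on the ephrin changes was not tested.

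The expression profiles nearest to the ephrins with the highest and lowest fold change were sought over the 4 libraries, as the smallest distance in log2(FPKM + 1). Only tested genes with a symbol were searched, with predicted, RIKEN and pseudogene entries left out. Nearest to Efnb3 were Fzd1 (distance 0.33), Sdf2l1 (0.34) and Zbtb16 (0.38). Nearest to Efnb1 were Gli3 (distance 0.20), Ccn2 (0.22) and Mapk8ip1 (0.25). With 4 libraries in 2 groups such a distance reflects mainly the level and the difference between the groups.

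**Figure D5:**
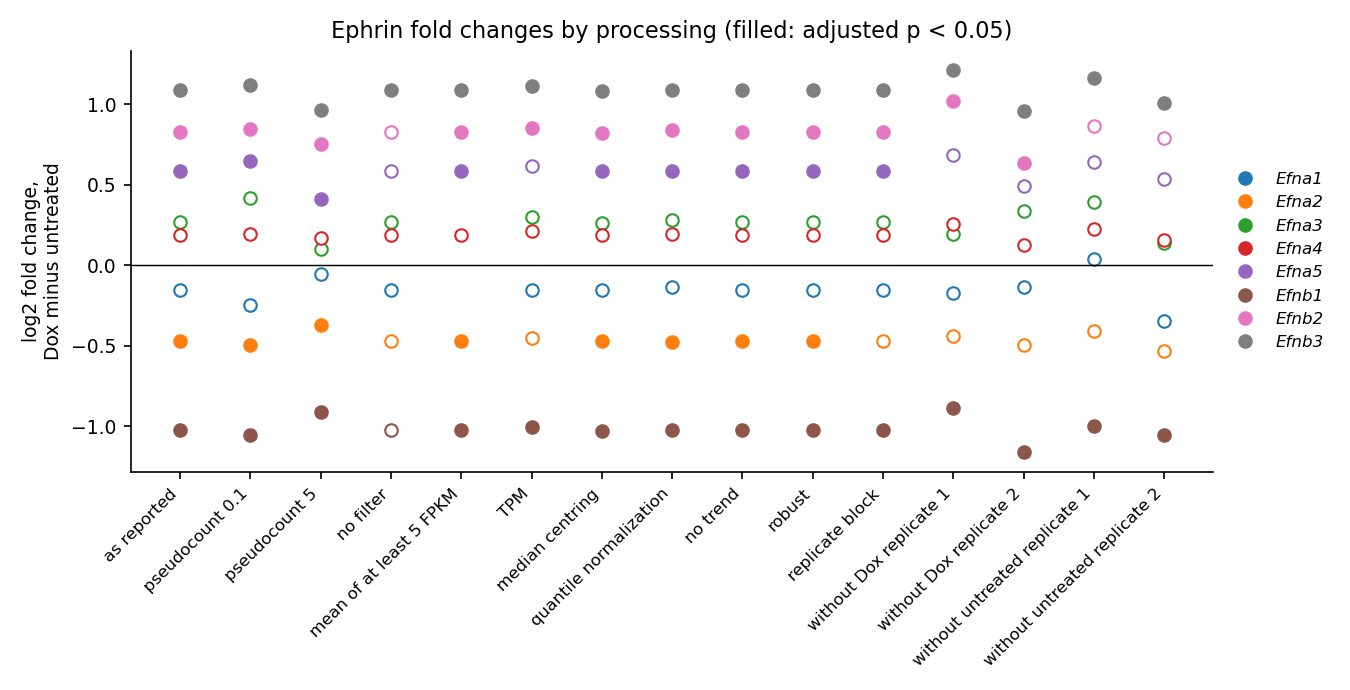
Log2 fold change of each ephrin gene (vertical axis) under the reported processing and 14 alternatives (horizontal axis). Filled circles have an adjusted p below 0.05 in limma. Efnb3 is filled in every column, Efnb1 in all but the fit without a filter, and Efna2 and Efna5 are open in every fit that leaves out a library.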

How the data were processed

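Poly(A)-selected RNA of 4 organoid libraries was sequenced as paired reads. Per the submitters' processing notes, STAR and Cuffdiff were used with mm10; versions, annotation release and strand setting are not given in the sources used here. The authors deposited FPKM values per gene, 1 column per library, rounded to 2 decimals. The table holds no counts, so no count model was used.

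Columns were matched to samples by library name and grouped by treatment label. The labels say that the duplicates had independent rounds of library preparation but not that they came from separate cultures, so p-values measure the spread between these libraries, which may be technical. Values were tested as log2(FPKM + 1) with limma 3.58.1 in R 4.3.3 (intensity trend, no covariate, two-sided) on 13931 genes, those whose mean FPKM reached 1. The added 1 understates changes of low genes. An exact permutation test of a single gene (two-sided) cannot go under 0.333 in this design, so calls rest on variance shared across genes. The members and lists were chosen with earlier results of these data known, so agreement with those is not independent support. Beside the members, the text names by rule the called receptor and effector genes with the 2 highest and 2 lowest fold changes. It also names the 3 nearest profiles of 2 members, with predicted, RIKEN and pseudogene entries left out. Other genes, among them further receptors, effectors and cell-type markers, are named outside that rule.

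Depth was fitted (Python 3.11.15) as the number of fragments that makes the lowest values of short single-transcript genes whole numbers of fragments. It is the scale of the deposited values, and may differ from the fragments sequenced if libraries were scaled to each other. Fragment numbers and counting errors per gene are approximate for the same reason. Within a tolerance of 0.15, 87.2% to 88.1% came out whole, against 30.0% if spread evenly. Gene models came from GENCODE M21 (GRCm38, the same build as mm10) and promoters from RefSeq.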

Additional observations from a re-analysis of the deposited data

How the results depend on the processing

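Of 110 refits of single ephrin genes, 92 kept the direction and the side of the threshold, 17 lost the call and 1 turned. The 110 include refits of the 3 genes not called, which had no call to lose. Efnb3 kept its call in all 14 alternatives and Efnb1 in 13 (adjusted p = 0.0505 in limma without a filter). Efnb2 kept its call in 11 of the 14, Efna5 in 8 and Efna2 in 7. Efna1, not called, ranged from -0.35 to 0.042 on the log2 scale with 1 library left out, and turned to 0.042 without untreated replicate 1. Against 5 ephrin genes called, 1 was called without a filter and 3 after rescaling to a common sum (TPM), and 2 to 3 when 1 library was left out. Against 5 effector genes, 3 were called without a filter, 3 with a mean of at least 5 FPKM and 3 to 4 with a library left out; 4 were called without the intensity trend, with 0.1 in place of 1 added, with the replicate block and after TPM rescaling, where Rgs3 or, with 0.1 added, Ngef was lost. Of the 4 receptors, 2 were called with a mean of at least 5 FPKM, since Epha10 and Ephb3 are below that mean, and 3 without a filter, without Dox replicate 1 and without Dox replicate 2, where Ephb3 was lost. Over all tested genes 1297 were called, against 745 without a filter, 821 with a mean of at least 5 FPKM and 593 to 697 with a library left out. Leaving out a library puts 3 libraries in the fit, and the lone library of its group is assumed to vary like the others. The replicate block gave 1134 calls over the whole table and 4 ephrin genes, losing Efna2 (adjusted p = 0.0615); same-numbered libraries did not deviate together (r = -0.043 across genes), so the numbers are not shown to pair them. Other causes of these shifts were not tested. Efna1 and Efna3 rest on the fewest fragments, with an approximate counting error of 8.8% to 14.6% per library at the fitted depth.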
